A study of Mus musculus with 20 samples.

Results

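The comparison described here is that of mouse embryonic stem (ES) cells 4 days after plating, given tamoxifen for the first day only, with the same cells on day 0, before any tamoxifen. It rests on 4 of the 20 arrays of the series, 2 for each group, chosen by their titles. All cells were ES_ZERT #18, 1 clone of the V6.5 line (an F1 hybrid of C57BL/6 and 129/Sv), and carried Zscan4-ERT2 on the pCAG vector, day 0 cells included. They grew as a monolayer on gelatin in ES medium with leukemia inhibitory factor (LIF). The withdrawn cells received 200 nM tamoxifen on day 1 and plain ES medium from the second to the fourth day. Nothing in the labels states that replicates were grown separately, and the p-values below therefore describe array-to-array spread that could be purely technical.

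Zscan4 proteins carry zinc fingers and a SCAN domain, and in ES cell cultures few cells express them at any moment, in short bursts. Fusion to ERT2, a modified ligand-binding domain of the oestrogen receptor, keeps a protein inactive until tamoxifen or its metabolite binds. LIF supports self-renewal of mouse ES cells through STAT3, and the cells differentiate when it is taken away.

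Each array compared 1 sample, labelled with Cy3 (green), with a common reference, labelled with Cy5 (red). The reference was RNA pooled from 11 cell lines of many tissues (embryo, kidney, liver, lung, muscle, skin and others), with ES cell RNA added. A level is therefore a log2 ratio of sample over reference: above 0 where the sample held more of a transcript than the pool, below 0 where it held less. The files name each probe by an identifier and its 60 bases, with no gene, and none of the 16 gene lists prepared for ES cells and other cell types could be used, since 1 of their 329 members had a probe placed on a gene. The level of Zscan4, the markers of ES cells and those of other cell types are therefore not reported here. No untreated cells of day 4 are among the samples used here, so the tamoxifen pulse and 4 days of culture cannot be told apart.

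The probes that carry the largest differences are shown first, so that each can be traced to its transcript. The first fell most and the second rose most of all the probes that met the rule for naming, and the third was among the 3 largest rises while being much lower in ES cells than in the pool. Capitals mark, in the next 3 pairs, the bases that both probes of a pair hold: 45 in the first pair of fallers, 12 at the end of one probe and the start of the other in the second, and 30 in the pair of risers. The last probe had made its whole rise by day 2.

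Z00027744-1: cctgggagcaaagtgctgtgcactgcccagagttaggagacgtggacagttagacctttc
Z00075380-1: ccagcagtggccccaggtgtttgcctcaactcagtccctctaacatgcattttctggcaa
Z00035658-1: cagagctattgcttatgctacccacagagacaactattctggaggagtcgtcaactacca
Z00074574-1: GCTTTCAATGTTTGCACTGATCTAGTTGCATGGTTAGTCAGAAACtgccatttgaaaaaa
Z00002490-1: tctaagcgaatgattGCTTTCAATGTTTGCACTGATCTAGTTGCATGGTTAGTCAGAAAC
Z00009936-1: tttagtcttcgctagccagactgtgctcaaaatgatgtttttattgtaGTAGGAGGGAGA
Z00074186-1: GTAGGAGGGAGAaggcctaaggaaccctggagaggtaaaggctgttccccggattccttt
Z00045886-1: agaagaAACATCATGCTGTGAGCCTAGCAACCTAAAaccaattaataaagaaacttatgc
Z00024130-1: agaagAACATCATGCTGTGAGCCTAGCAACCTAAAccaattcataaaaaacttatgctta
Z00015795-1: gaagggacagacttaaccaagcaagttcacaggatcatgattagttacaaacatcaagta

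The sequences are those deposited in the scanner files, written 5′ to 3′. The files give no genome position for them.

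Cells that had received the pulse differed on day 4 from the starting cells at many probes. Of 29414 probes tested, 9522 (32.4%) were higher and 7233 (24.6%) lower on withdrawn day 4 than on day 0 (limma, Benjamini-Hochberg adjusted p under 0.05), together 57% of the probes. Most of these differences were small, 73.7% of the called probes lying under 1.5-fold. At 2-fold or more, 817 probes (2.78%) were higher and 411 (1.4%) lower, and at 4-fold or more 44 were higher and 26 lower. The 2-fold counts depended on the values used: Agilent's processed signals gave 1681 higher and 1237 lower, and the series matrix gave 1121 and 810 among 18098 probes. The middle 95% of all differences ran from -0.82 to 1.04 (log2), with a median of 0.03. In such whole cultures, fewer cells with a transcript and less of it per cell cannot be told apart. Higher probes made up 56.8% of those called, but 48.7% with the sample channel alone and 49.5% with Agilent's processed signals, so the balance of the directions among small differences depended on the scaling. Among probes at 2-fold or more, higher probes were the majority under every scaling tried, at 56.6% to 69.7%.

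The distance between the groups was larger than that between replicates. The root mean square of the log2 difference over all probes, used here as a distance, was 0.446 between the group means and 0.442 to 0.466 between single arrays of the 2 groups. Between replicate arrays it was 0.113 on withdrawn day 4 and 0.12 on day 0. Across probes, arrays correlated at 0.993 within each of the 2 groups and at 0.884 to 0.893 between them.

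The 2 groups lay on different slides (slide 1 for day 0, slide 5 for withdrawn day 4) and were scanned in different sessions, so slide, session and group cannot be told apart in the ratio. The reference channel held the same pool on every array. It was compared after loess within arrays and quantile normalization of the average signal between arrays. Differences in the reference channel are therefore those left after this scaling, and do not cover labelling or RNA of the sample channel. The root mean square difference of the reference channel was 0.109, its middle 95% ran from -0.20 to 0.18 (log2), and across groups it correlated at 0.999. In that channel 1590 probes (5.41%) were called, 319 higher and 1271 lower, and 11 and 3 of them reached 2-fold. That count was 4 with only these 4 arrays in the fit, 381 without the first withdrawn array and 383 without the second. Of the 1228 probes that differed at least 2-fold in the ratio, 136 were also called in the reference channel, a larger share than the 5.41% of all probes. In 20 the reference moved by 0.5 (log2) or more. Of the 1590 probes called in the reference, 74.2% were also called in the ratio, beside 57% of all probes. Without the 1590 probes, 1092 were called at 2-fold or more.

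**Figure D1:**
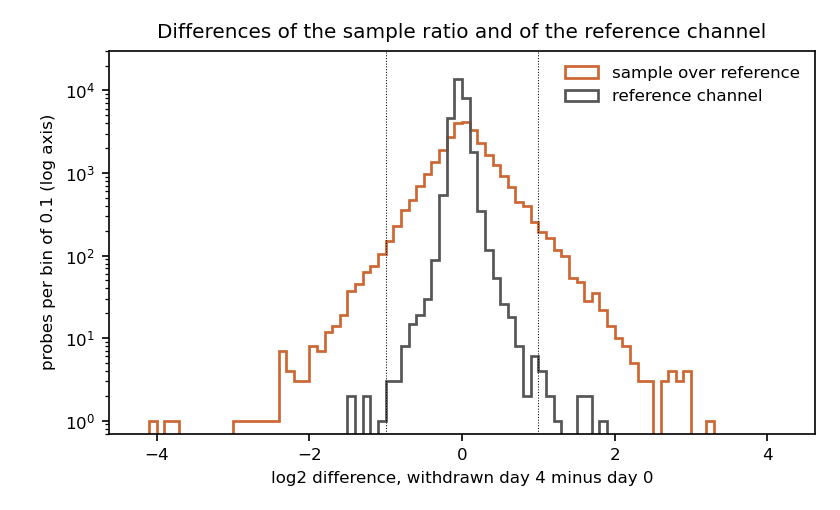
Histogram of the log2 difference between withdrawn day 4 and day 0 over 29414 probes, in bins of 0.1, for the ratio of sample over reference and for the reference channel; the vertical axis is logarithmic and dotted lines mark 2-fold. The ratio spreads past 2-fold for 1228 called probes, while 14 probes of the reference channel are called there.

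The reference channel reached 2-fold at 14 probes, and these show where a ratio needs care. Probe Z00030602-1 had ratios of 1.69 and 1.83 on day 0 and 0.21 and 0.37 on withdrawn day 4, a called fall of 1.47 (log2), while its reference signal fell by 1.09. Z00057511-1 fell by 1.32 in the ratio, with the reference lower by 1.26. For 7 of the 14 the ratio was not called. None of them is among the 24 largest changes described below, for which a reference difference under 0.5 was required. Of those 24, 18 were not called in the reference channel. The rest were called there at differences under 0.5, a larger share than the 5.41% of all probes. They were the riser Z00060357-1, the largest faller, Z00027744-1, and the fallers Z00046636-1, Z00074186-1, Z00003765-1 and Z00071847-1.

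The same distance was taken for each of the other groups, with the day 0 arrays shared by all. Untreated day 2 cells were nearest to day 0, at 0.156, with the reference channel at 0.095. Untreated day 1 cells were at 0.307 and day 1 cells in tamoxifen at 0.336. Along the pulse schedule the distance was 0.283 on day 2, 0.323 on day 3 and 0.446 on day 4. Cells kept in tamoxifen were at 0.286, 0.363 and 0.495 on the same days. The reference channel stayed between 0.083 and 0.127 in all of these groups. Seen from withdrawn day 4, the nearest group was continued tamoxifen on day 4, at 0.172 and on the same slide, followed by withdrawn day 3 at 0.347. Day 0 was at 0.446, untreated day 2 at 0.464, and untreated day 1, at 0.634, was the farthest.

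**Figure D2:**
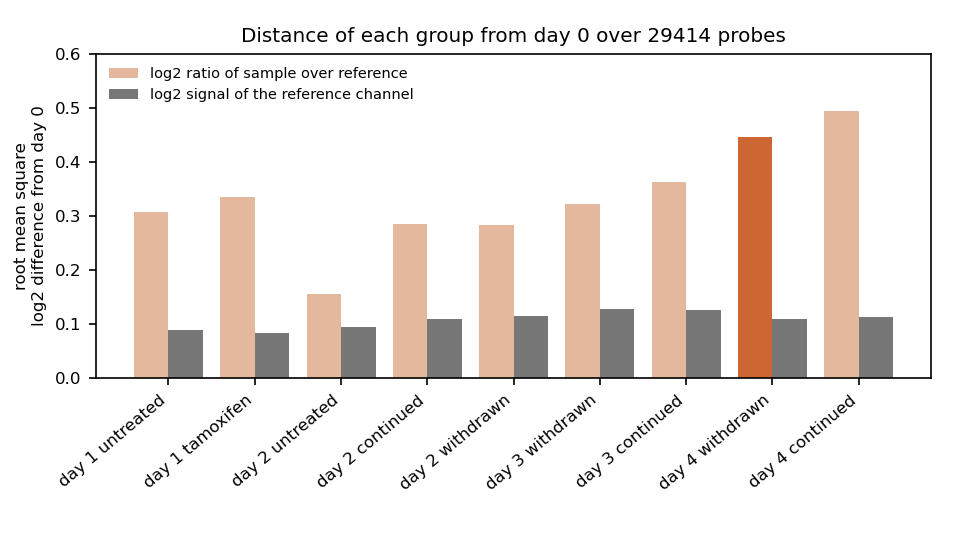
Bars give the root mean square log2 difference of each group's mean from the mean of day 0 over 29414 probes, for the ratio of sample over reference and for the reference channel alone; each group has 2 arrays. Withdrawn day 4, the darker bar, stands at 0.446 against 0.109 in its reference channel.

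The direction of the differences went with whether a transcript was richer in ES cells or in the pool. To sort probes this way, the 2 arrays of untreated cells of day 2 were used, which are no part of the comparison. They lay near day 0, at a distance of 0.156, so probes far from the pool there tended to be far from it on day 0 too. A narrower spread of ratios on the withdrawn day 4 arrays would by itself give these directions, so the classes are no test of them. Of 3494 probes at least 2-fold below the pool there, 2000 (57.2%) were higher on withdrawn day 4 and 376 (10.8%) lower, with a median difference of 0.26 (log2). At 2-fold or more, 368 of them were higher and 17 lower. Of 1826 probes at least 2-fold above the pool, 461 (25.2%) were higher and 946 (51.8%) lower, with a median of -0.22; at 2-fold or more, 56 were higher and 195 lower. Over the 24086 probes in between, 29.3% were higher and 24.5% lower, with a median of 0.02. The median difference of the reference channel was -0.05, -0.03 and -0.03 in the 3 classes. The spread of the ratios over all probes was narrower on withdrawn day 4, with SDs of 0.919 and 0.934 against 0.969 and 0.978 on day 0. On withdrawn day 3, scanned in a further session, the SDs were 0.942 and 0.949. Slide and session therefore cannot be told apart from the cells in this narrowing or in the directions above.

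**Figure D3:**
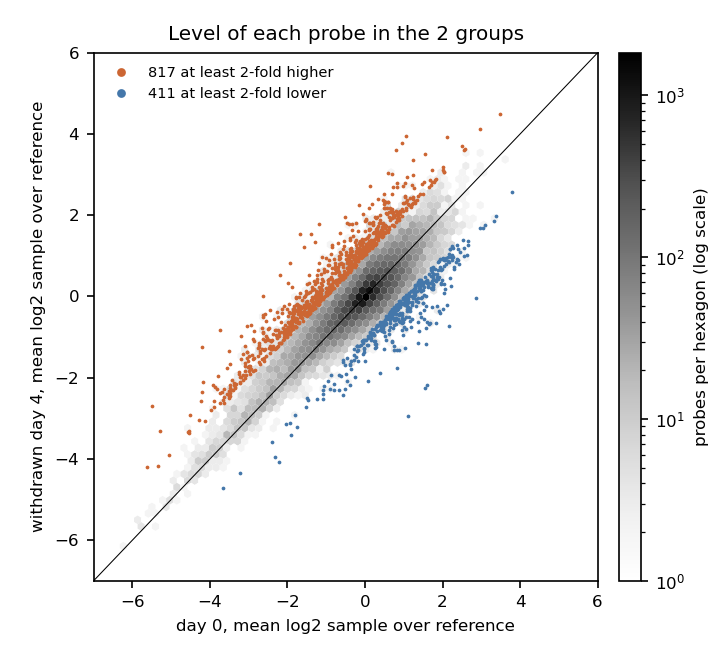
Each probe's mean log2 ratio of sample over reference on day 0 (horizontal) and on withdrawn day 4 (vertical); grey shading counts probes on a log scale, the line marks equal levels, and coloured points are the 817 probes called at least 2-fold higher and the 411 called at least 2-fold lower. The higher probes lie mostly at ratios below 0 on day 0, and the lower ones mostly above 0. The day 0 values also took part in choosing these probes, which favours such positions.

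The largest rises were those of 12 probes that met every condition for naming (called, well above background and unsaturated on all 4 arrays, groups not overlapping, reference difference under 0.5). Their folds ran from 6.24 to 9.39 and their standard errors from 0.050 to 0.10 (log2). Probe Z00075380-1 was at -1.70 and -1.67 on day 0 and at 1.52 and 1.58 on withdrawn day 4. It passed from below the pool to above it, a rise of 3.23 (log2, SE 0.05, limma adjusted p = 3.3e-17), with the reference higher by 0.18. Z00007374-1 went from -1.23 and -1.14 to 1.79 and 1.79, a rise of 2.97 (7.86-fold). Z00010489-1 went from -1.54 and -1.61 to 1.16 and 1.29. These 3 probes had low ratios in the starting cells and exceeded the pool by day 4.

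Another group of risers was far below the pool at the start and stayed below it. Z00035658-1 went from -4.23 and -4.16 to -1.17 and -1.32, a rise of 2.95 (log2, SE 0.06, limma adjusted p = 4.5e-16). Z00055449-1 went from -3.68 and -3.80 to -0.79 and -0.87. Z00035949-1 had the lowest start, at -5.37 and -5.60, and reached -2.72 and -2.65. In all 3, cells of day 4 still held less than the pool.

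The riser pair with 30 shared bases started above the pool. Z00045886-1 went from 1.05 and 1.08 to 3.97 and 3.92, a rise of 2.88 (7.36-fold). Z00024130-1 went from 0.95 and 0.97 to 3.81 and 3.75, a rise of 2.82 (7.07-fold). The 2 probes differed by 0.059 in their change, and since they share sequence they are not independent evidence of it. Z00060357-1 had similar levels, from 0.80 and 0.82 to 3.66 and 3.54, without a shared stretch of 25 bases. The other 3 named risers, Z00002681-1, Z00033292-1 and Z00015795-1, rose 6.78-, 6.61- and 6.24-fold from levels between -2.66 and -1.84.

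The 3 largest falls exceeded the largest rise. Z00027744-1 was at 1.14 and 1.09 on day 0 and at -3.03 and -2.88 on withdrawn day 4, a fall of 16.8-fold (log2 -4.07, SE 0.07, limma adjusted p = 7.7e-17), with the reference lower by 0.15. The pair with 45 shared bases followed. Z00074574-1 went from 1.55 and 1.54 to -2.23 and -2.29 (log2 -3.80), and Z00002490-1 from 1.57 and 1.64 to -2.11 and -2.24 (log2 -3.78). The replicates of each group lay close together for these 3 probes, and all 3 crossed from above the pool to below it.

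Z00046636-1, the highest of the named fallers at the start, went from 2.81 and 2.92 to -0.06 and -0.02, a fall of 7.49-fold to the level of the pool. Z00004852-1 went from 2.13 and 2.18 to -0.68 and -0.77 (log2 -2.88, SE 0.08, limma adjusted p = 1.9e-14). Z00010943-1 went from 0.80 and 0.87 to -1.79 and -1.76. Z00074186-1 and Z00009936-1, which overlap by 12 bases end to start, fell by 2.73 and 2.50 (log2). The remaining 4, Z00003765-1, Z00009959-1, Z00074111-1 and Z00071847-1, fell 5.57-, 5.10-, 5.03- and 5.01-fold. All 12 named fallers were at least 2-fold above the pool in untreated day 2 cells, and 9 of the 12 named risers at least 2-fold below it. Of all 29414 tested probes, 1826 were that far above the pool and 3494 that far below. The naming rule took the largest changes from day 0, and untreated day 2 lay near day 0, which favours such levels.

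**Figure D4:**
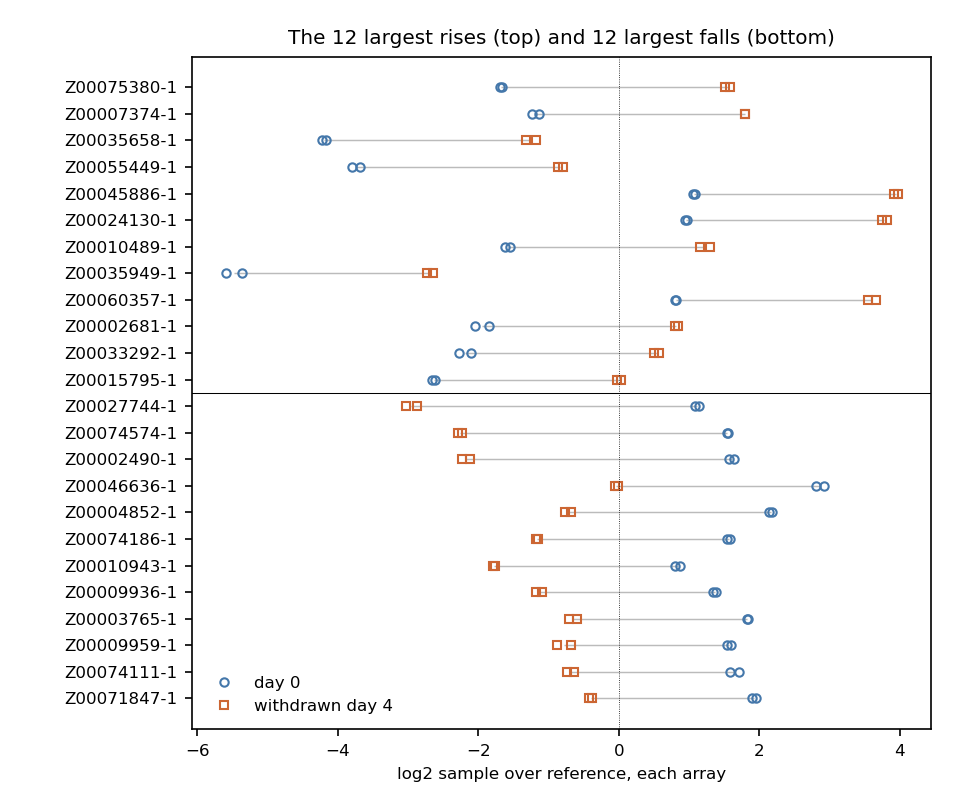
Log2 ratio of sample over reference on each of the 4 arrays for the 12 largest rises (upper block) and the 12 largest falls (lower block); circles are the 2 day 0 arrays, squares the 2 withdrawn day 4 arrays, and grey lines join the group means. In every probe the gap between the groups exceeds that between replicates. The rule for naming required that the groups not overlap.

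Probes that share bases show how closely readings of shared sequence repeat on the same arrays. They are not an independent check on these changes, since slide, session and culture act on both probes of a pair. Pairs without shared bases were not compared. Among the tested probes, 992 pairs shared a run of 25 bases or more, and the median absolute difference between the changes of a pair was 0.05 (log2). In 39 of the 52 pairs with at least 1 probe called at 2-fold or more, both were called at 2-fold or more in the same direction, and in 0 in opposite directions. Z00074111-1 fell by 2.33 and its partner Z00052046-1, with 55 shared bases, by 2.32. Z00071847-1 fell by 2.33 and its partner Z00073883-1, with 53 shared bases, by 2.31. Pairs of this kind can read 1 transcript, so the number of probes overstates the number of genes.

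Some transcripts were measured only in 1 group. Over all 42006 probes, 1084 were well above background on both withdrawn day 4 arrays and on neither day 0 array, against 119 the other way. In the reference channel the same counts were 33 and 146. The total number of probes above background in the sample channel was 28957 and 28474 on withdrawn day 4 and 26199 and 27607 on day 0. For such probes the fold is a lower bound, taken in the sample channel as the mean of the brighter group against the higher of the dim probe's own signal and the lowest signal above background on each array. Since these probes were chosen by the group in which they were dim, no test is given for them. The bound reached 2-fold for 10 of the 1084 and for 5 of the 119.

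The largest bound among probes above background only on withdrawn day 4 was that of Z00029824-1, at least 3.06-fold higher, followed by Z00006908-1, at least 2.68-fold, and Z00050019-1, at least 2.64-fold. Z00071259-1 had a bound of at least 2.5-fold, but its reference signal was higher by 1.52 (log2) and its ratio was not higher, at -0.20. Among probes above background only on day 0, Z00029238-1 was at least 3.20-fold lower on withdrawn day 4. Z00065714-1, Z00022778-1 and Z00015886-1 were at least 2.35-, 2.15- and 2.12-fold lower in the sample channel. In the ratio to the reference their means differed 1.82-, 2.34- and 2.10-fold, the reference signal of Z00065714-1 being lower by 0.42 (log2), so the first and last bounds do not hold for the ratio.

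The probes that differed at 2-fold or more were followed through the other arrays, as a description, since day 0 and withdrawn day 4 arrays chose them. The median level of the 817 risers was -0.88 and -0.91 on the day 0 arrays and 0.43 and 0.48 on the withdrawn day 4 arrays. In untreated cells it was lower on day 1, at -1.28 and -1.23, and on day 2 at -0.92 and -0.81, close to day 0. On the pulse schedule it was -1.05 and -1.06 on day 1, -0.48 and -0.49 on day 2, and -0.21 and -0.21 on day 3. For the 411 fallers the medians on that schedule were 0.99 and 1.03 on day 0, 1.18 and 1.15 on day 1, 0.58 and 0.64 on day 2, 0.35 and 0.34 on day 3, and -0.33 and -0.33 on day 4. Untreated day 1 cells were at 1.36 and 1.43. Both sets thus lay on the far side of day 0 on day 1 and crossed it by day 2 in the pulsed cells, and in untreated cells of day 2 they were near day 0.

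**Figure D5:**
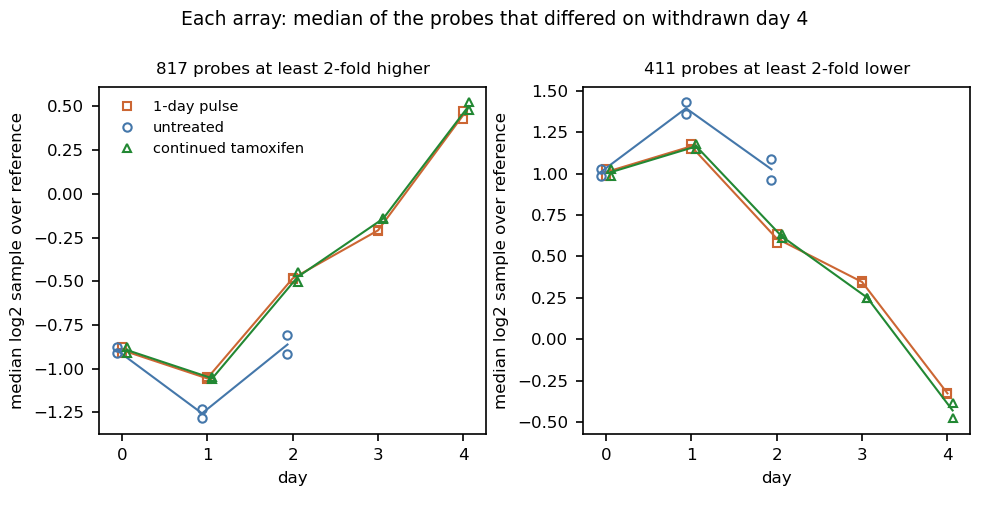
Median log2 ratio of sample over reference on each array, by day, for the 817 probes called at least 2-fold higher (left) and the 411 called at least 2-fold lower (right) on withdrawn day 4; lines join group means, and the 2 tamoxifen schedules share the day 0 and day 1 arrays. The pulsed and the continued cells lie close together on each day, and untreated cells of day 2 lie near day 0.

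The timing of these probes was read from the midpoint of each one's change. The withdrawn day 4 arrays both chose the probes and set the midpoint, which favours day 4 as the day of passing. Those arrays also had a slide and session apart from the earlier days. For 430 of the 817 risers (52.6%) the pulsed cells first passed the midpoint between day 0 and withdrawn day 4 on day 4 itself. For 195 it was day 3, for 148 day 2 and for 44 day 1. Of the 411 fallers, 193 (47%) passed it on day 4, 86 on day 3, 83 on day 2 and 49 on day 1. Among the 24 named probes, 3 passed it on day 1, 10 on day 2, 8 on day 3 and 3 on day 4.

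Individual probes differed in their course. The early riser Z00015795-1 was at -2.64 on day 0, -1.16 with tamoxifen on day 1, 0.43 on withdrawn day 2, 0.44 on withdrawn day 3 and 0.00 on withdrawn day 4, so its highest levels came before the end. The late riser Z00010489-1 was at -1.58 on day 0, -2.12 on day 1 with tamoxifen, -1.43 on withdrawn day 2, -0.72 on withdrawn day 3 and 1.23 on withdrawn day 4. Its gain of the last day was larger than that of all earlier days.

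The fallers held the same contrast. Z00010943-1 was at 0.84 on day 0, -0.58 with tamoxifen on day 1, -2.24 on withdrawn day 2, -1.34 on withdrawn day 3 and -1.77 on withdrawn day 4. Z00046636-1 had reached 0.03 on withdrawn day 2 and was at 0.03 and -0.04 on the next days, 97.8% of its final change being in place by day 2. Z00074186-1 was still at 1.03 on withdrawn day 2, then at 0.13 and -1.17. Early and late fallers were thus both among the 12.

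A comparison without any of these 4 arrays or their slides was available in withdrawn day 3 against untreated day 2. There 6549 probes (22.3%) were higher and 5574 (19%) lower (limma, adjusted p under 0.05). Of the 817 risers, 679 (83.1%) were higher there and 28 (3.43%) lower, with a median difference of 0.61 (log2). The 679 made up 10.4% of all probes higher in that comparison. Of the 411 fallers, 326 (79.3%) were lower and 10 (2.43%) higher, with a median of -0.66, and the 326 made up 5.85% of all probes lower there. The median over all probes was 0.00. All 24 named probes were called in the direction of the main comparison, the risers by 0.97 to 3.23 and the fallers by -3.63 to -0.68 (log2). Those arrays, too, lay on different slides and differed in day as well as in tamoxifen.

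On day 4 the withdrawn cells could be set against cells kept in tamoxifen, on the same slide. Over all probes 12.3% were called between these 2 groups. Of the 24 named probes 15 were called, 8 risers and 7 fallers, and each of the 15 lay farther from day 0 with continued tamoxifen. The comparison shares the withdrawn arrays with the rule that named the probes. The largest was Z00004852-1, at -2.00 in continued and -0.72 in withdrawn cells, a further fall of 1.27 (log2, SE 0.08, limma adjusted p = 8.7e-09). The difference of continued from withdrawn cells was 0.69 for Z00015795-1 and -0.85 for Z00071847-1. Z00074186-1, at -1.17 in withdrawn and -1.18 in continued cells, differed by -0.01 (SE 0.09, limma adjusted p = 0.95). The count of 15 was 5 with the local backgrounds as given. The series matrix holds values for 14 of the 24, of which 7 were called.

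For 64 probes a gene could be given after all, by a rule set after it was seen that the files name none: the probe begins within 10 bases before to 20 bases after the start of 1 RefSeq gene (GRCm38.p6) and its first 30 bases or more match there exactly. A further 2 probes matched several genes and were left out. Of the 64, 20 (31.2%) were higher and 8 (12.5%) lower on withdrawn day 4, beside 32.4% and 24.6% of all probes, with a median difference of 0.07 (log2). These 64 probes were picked by position and are not a sample of all genes. Several of these genes have near-identical copies that such a probe may also read, as for histones and ribosomal proteins.

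The largest rise among them was that of Cyba, which encodes a membrane subunit of the NADPH oxidase complex. Its probe matches chr8:122432891-122432941 on the minus strand and was at -1.16 and -1.14 on day 0 and at -0.13 and -0.08 on withdrawn day 4. That is a rise of 1.04 (log2, SE 0.08, limma adjusted p = 3.2e-09), with groups that did not overlap and a reference lower by 0.14.

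The second largest was that of Rps27rt, a ribosomal protein S27 retrogene. It was at -1.29 and -1.23 on day 0 and at -0.30 and -0.27 on withdrawn day 4, and its sequence may be read from Rps27 as well. Fau, which encodes ribosomal protein S30 fused to a ubiquitin-like protein, went from -0.56 and -0.56 to -0.09 and -0.09 (chr19:6057955-6057996, plus strand). Sec61b, a subunit of the channel that carries proteins into the endoplasmic reticulum, rose by 0.53 (log2), from -0.57 and -0.52 to -0.06 and 0.03. Its reference difference was -0.19. The probe of Rps27l, encoding an S27-like protein, was higher by 0.46, while that of Rpl10a was higher by 0.40 with SE 0.25 and did not pass the test (limma adjusted p = 0.18).

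Of genes with other roles, Snrpf, a core protein of spliceosomal RNA-protein particles, rose by 0.57 (log2), from 0.01 and 0.06 to 0.59 and 0.63. Its reference difference was 0.04. The probes of the histone genes H2bc11 and H4c3 were higher by 0.48 and 0.36 in the ratio, with reference differences of -0.09 and -0.18. A lower reference raises the ratio by itself, so these values overstate the change of the sample signal. H2ac18 and H3f3a, at 0.15 and 0.13, did not pass the test. Mif, a cytokine gene and the only member of the prepared lists with a probe, rose by 0.36, from -0.09 and 0.03 to 0.31 and 0.35 (limma adjusted p = 3.1e-05). Its reference difference was -0.12. Of the 8 lower probes, Zfp976, a zinc finger gene, fell most, from 0.67 and 0.69 to 0.15 and 0.17 (log2 -0.52). Kif22, a kinesin that binds chromosomes in mitosis, fell by 0.23 and Toe1, a deadenylase, by 0.20. Gstp1, a glutathione transferase, and Prdx1, a peroxiredoxin, had differences of -0.06 and 0.05 that did not pass the test (limma adjusted p = 0.41 and 0.75).

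Base composition and signal of the probes moved with how many were called. The median GC content was 43.3% in both the 817 risers and the 411 fallers, against 45% in all tested probes. Of the 6254 probes with 53.3% GC or more, 31.1% were higher and 17.5% lower, against 33.6% and 28.8% of the 4473 probes under 36.7%. By mean sample signal, 13.5% of the dimmest 5883 were higher and 11.1% lower, against 38.5% and 32.2% of the brightest 5883. The polyadenylation hexamer AATAAA, searched on the strand as printed, was in 10% of risers, 10.7% of fallers and 7.5% of all tested probes. Its reverse complement TTTATT was in 1.96%, 3.41% and 3.06%. Over 16 regions of the array surface the median difference lay between 0.02 and 0.05 (log2).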

How the data were processed

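The scanner files hold linear intensity values of both channels, deposited by the authors, and per the file headers come from Feature Extraction version 9.5.1.1. The deposited series matrix holds values on a log10 scale, with centring and normalization not given in the sources used here; its column medians lay between 2.325 and 2.332 for the 4 arrays. In 71.6% of its 25030 rows the difference between the groups equalled that of Agilent's processed log ratio within 0.001, so it is not independent of that alternative. Flags in the deposited files marked spots above background.

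Mean signals were corrected with normexp (offset 50, local backgrounds over 10 times the array's median set to it) and normalized by loess (limma 3.58.1 under R 4.3.3). For values of a single channel, the average signals of both channels were also quantile-normalized between arrays. Control spots had weight 0 in loess, non-uniform spots were dropped (12 missing values among the tested probes on the 4 arrays) and spots of a probe were averaged. The offset understates changes of dim probes. Of 42006 probes, 29414 were kept because some group had both its arrays well above background in the sample channel. A group-means model was fitted to all 20 arrays (10 residual and 6.94 prior degrees of freedom), with Benjamini-Hochberg adjustment, and tested on simulated data. Median raw signals on the 4 arrays were 98.6 to 104 in the sample and 196 to 208 in the reference channel. Only 2 arrays a group limit the precision.

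Each group lay on 1 slide, so no slide term could be fitted. Named were the 12 largest changes each way under the conditions given, and the 4 largest lower bounds each way. The rule for genes written with the design needed a gene column, a probe table, transcripts or proteins. None of these was at hand, so that rule could not be applied. The looser match to gene starts was added after seeing the files. The comparison, lists and rules were chosen with earlier results of these data known. Same-numbered arrays did not deviate together (correlation of replicate differences -0.019). The alternatives were other backgrounds, normalizations, filters, sources and sets of arrays.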

Additional observations from a re-analysis of the deposited data

How the results depend on the processing

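All 24 named probes kept their direction and their call in each of the 392 values obtained under the alternatives, their log2 changes ranging from 0.823 to 1.33 times the value reported. The count of called probes was 11119 with the series matrix values, where 18098 probes were tested, and within 1.5 times of 16755 elsewhere. The count at 2-fold or more was 2918 with Agilent's processed signals and 1931 with the series matrix. The root mean square difference was 0.652 with either of these, 0.497 with an offset of 16, 0.469 for probes above background on all 4 arrays, 0.429 with median centring and 0.377 without a filter. Without each of the 4 arrays in turn, 14477 to 15035 probes were called, 1210 to 1328 of them at 2-fold or more, and the root mean square was 0.442 to 0.458. With a replicate block 16787 probes were called and 1228 at 2-fold or more; same-numbered arrays share only a number, and the block changed no other count by over 1.5 times.

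Alternatives for the other comparisons were chosen after seeing the data. The reference channel gave 1590 called probes, 429 with local backgrounds as given, 694 with that channel quantile-normalized alone, 4 with only the 4 arrays, and 381 to 1567 without each array. The named probes called between continued and withdrawn day 4 numbered 5 with local backgrounds as given, 7 of the 14 that have values in the series matrix, and 13 to 16 without each array. Of the risers, 473 to 712 were higher on withdrawn day 3 than on untreated day 2, and 222 to 325 of the fallers lower, under the alternatives. The 222 came from the series matrix, which has values for only 18098 of the 29414 tested probes. The next lowest count of fallers was 259, with local backgrounds as given. The causes were not tested. Signal over background limits folds of dim probes to lower bounds.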
